A study of Mus musculus with 6 samples.

Results

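The comparison described here followed parental mouse embryonic stem cells (ESC) over the first 3 days of a differentiation towards mesoderm by single-cell RNA sequencing. It set the parental day 3 library against the parental ESC library. A UMI (unique molecular identifier) stands for 1 captured RNA molecule. Cell barcodes with 1000 genes or more were kept where mitochondrial genes held no more than 10% of the UMIs. Those in which 3 or more of Col1a1, Col1a2, Col3a1, Mgp, Bgn and Lox, genes of connective tissue, were detected were then dropped. The rule left 1277 ESC of 2361 barcodes and 943 day 3 cells of 1295, so 2220 of the 6542 cells that the same filters left in all 6 libraries of the series.

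The ESC group was undifferentiated, labelled parental, and its culture medium is not given in the sources used here. The day 3 group carried the same label. Per the labels' protocol, ESC on gelatin received N2B27 medium with Bmp4 for 2 days, and a DMEM-based medium that held Rspo3 and LDN-193189 for the next 4. Day 3 counted from the first medium therefore lies 1 day after the change. Bmp4 is a ligand of the BMP receptors, LDN-193189 blocks them, and Rspo3 enhances Wnt signalling. The other genotype of the series, Oct1_cKO, differs by a conditional knockout of Oct1, the transcription factor encoded by Pou2f1, and its ESC and day 3 libraries (528 and 1020 cells) serve as a second course here. Each group was 1 library, so no difference below has a replicate check or a test, and all intervals are 95% intervals of counting error. The titles of the ESC and day 3 libraries start with different numbers whose meaning the labels do not state. Stage and title prefix cannot be told apart.

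ESC in culture resemble the naive epiblast of the embryo before implantation. On leaving that state they pass through formative and primed states, in which naive genes such as Klf4 fall silent and Fgf5, Pou3f1 and the DNA methyltransferases of new methylation are switched on, while Pou5f1, the gene of Oct4, stays on. In the embryo, Nodal, Wnt and FGF signals then set up the primitive streak, marked by T, and at its caudal end progenitors with T, Cdx2, Nkx1-2 and the first Hox genes feed the growing trunk.

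The ESC cells held 71824601 UMIs with a median of 52129 per cell, and the day 3 cells 77458118 with a median of 82664. Mitochondrial genes took 5.37% and 3.80% of the UMIs. The filter on connective tissue genes removed 119 ESC barcodes, 90 of them with 5 or all 6 of the genes, and 5 barcodes at day 3. Just inside its limit, 74 ESC and 12 day 3 cells with 2 of the 6 genes were kept, and just outside it lay 29 ESC and 1 day 3 barcodes with 3 or 4. A trace of these genes remained in the kept cells: in ESC and at day 3 Mgp measured 6.53 and 0.568 CPM, Col1a1 1.48 and 0.4002 CPM, Col1a2 0.585 and 1.201 CPM, Col3a1 0.0139 and 0.0387 CPM, Bgn 1.77 and 0.103 CPM and Lox 0.3202 and 0.155 CPM. CPM stands for UMIs per 1e6 UMIs of the summed library. Over a fibroblast list of 17 other genes, 6 reached 5 CPM, and the summed level was 152 CPM in ESC and 190.1 CPM at day 3. The 2 libraries shared 0 barcodes.

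Both libraries carried the RNA of a pluripotent culture. Pou5f1 (ENSMUSG00000024406, mm10 chromosome 17, 35506018 to 35510772, plus strand) had UMIs in 99.2% of ESC and 96.6% of day 3 cells when every cell was thinned to 10000 UMIs, and in 21.2% of the removed ESC barcodes. Thinning kept 1152 ESC, 842 day 3 cells and 104 of the removed barcodes, and left out 125 ESC and 101 day 3 cells of lower depth. All shares of cells below refer to thinned cells unless said otherwise. Pou2f1 measured 31.5 CPM (30.2 to 32.8) in ESC and 28.4 CPM (27.3 to 29.6) at day 3, and 21.4 and 12.7 CPM in the Oct1_cKO libraries. The tags of this 5′ assay may lie outside a deleted exon, so these levels check the genotype label only in part.

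Promoter stretches of 100 bases are printed for 5 genes at the outset because they belong to genes on which the results turn and carry short motifs of the POU factors, of the hypoxia response and of Wnt signalling. They come from RefSeq on GRCm38.p6, read 5′ to 3′ on the gene's strand, and capitals mark every match on either strand. The octamer ATGCAAAT, bound by POU factors, stood in the stretches of Zfp42 (chr8:43307142-43307241, minus strand), which was lower at day 3, and Cdx2 (chr5:147307343-147307442, minus strand), which was higher. The TCF/LEF letters CTTTGAA stood in that of T (chr17:8434173-8434272, plus strand). The hypoxia core ACGTG stood in those of Slc16a3 (chr11:120948967-120949066, plus strand) and Slc2a1 (chr4:119108645-119108744, plus strand), which were both higher.
Zfp42: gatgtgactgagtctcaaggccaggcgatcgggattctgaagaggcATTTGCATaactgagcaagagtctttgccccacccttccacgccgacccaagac
Cdx2: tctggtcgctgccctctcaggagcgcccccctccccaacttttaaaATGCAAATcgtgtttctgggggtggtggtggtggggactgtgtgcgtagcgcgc
T: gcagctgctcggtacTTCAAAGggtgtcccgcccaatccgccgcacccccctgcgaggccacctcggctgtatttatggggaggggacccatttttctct
Slc16a3: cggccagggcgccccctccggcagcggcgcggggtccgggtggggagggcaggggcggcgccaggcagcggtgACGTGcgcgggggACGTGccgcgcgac
Slc2a1: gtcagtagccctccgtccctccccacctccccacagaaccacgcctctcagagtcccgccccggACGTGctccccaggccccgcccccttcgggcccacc

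These motifs also stood in many other promoters. Within the 250 bases upstream of the start, the octamer stood in 1.601% of 32851 promoters, the hypoxia core in 16.6% and CTTTGAA in 4.46%. Of 9427 promoters of genes compared here, 1.17%, 22.9% and 2.99% held them. Of promoters of genes that were higher at day 3, 2.04%, 18.03% and 2.38% held them, and of those lower 1.49%, 18.97% and 4.37%. In the glycolysis and hypoxia list, 15 of 23 genes with a promoter in the table had the hypoxia core, among them 7 of the 13 that differed. A match describes letters and shows no binding.

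Of 9380 genes with at least 5 CPM in 1 of the 2 libraries, 883 (9.41%) had at least 2 times the ESC level at day 3, and 844 (9.00%) were lower by the same factor. Such genes are said to rise or fall below. These shares are the background for every list below. The median log2 ratio of day 3 over ESC was 0.08, and the quartiles were −0.34 and 0.47. The higher genes included 95 with at least an 8-fold difference, and the lower genes 142.

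**Figure D1:**
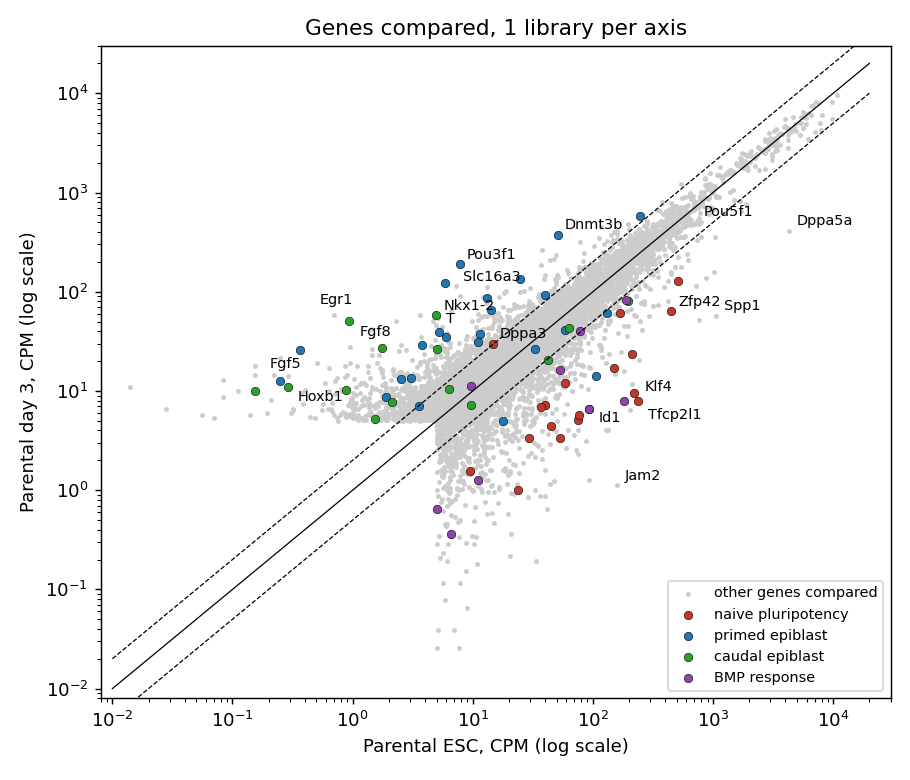
Level of each of the 9380 genes compared in the parental ESC library (x axis) and the parental day 3 library (y axis), in CPM on log scales, with equality as a solid line, 2-fold differences as dashed lines and 4 gene lists in colour. Genes of the naive list lie below the lower dashed line except Dppa3, and most primed and caudal genes lie above the upper one.

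The naive network was the most reduced of the lists followed in full. Of its 20 genes, 19 reached 5 CPM, 18 of them were at least 2-fold lower at day 3, 1 was higher, and the median log2 ratio was −3.13 against 0.08 for all genes. Tfcp2l1, a transcription factor that sustains ESC under LIF, measured 236 CPM (232 to 239) in ESC and 7.99 CPM (7.37 to 8.65) at day 3, a log2 ratio of −4.88 (−5.0004 to −4.77). Klf4, a Krüppel-like factor of the same network, went from 219 CPM (216 to 222) to 9.55 CPM (8.88 to 10.3), a ratio of −4.52 (−4.63 to −4.41). Esrrb, an orphan nuclear receptor, went from 53.7 to 3.37 CPM. All 3 were under 10 CPM at day 3.

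Other naive factors stayed measurable. Zfp42 (Rex1), a marker of naive cells, fell from 449 CPM (444 to 454) to 63.5 CPM (61.8 to 65.3), a ratio of −2.82 (−2.87 to −2.78). Nanog fell least in log2 terms among the 18, from 169.5 to 60.97 CPM, a ratio of −1.48 (−1.52 to −1.43). Klf2 fell from 512 to 127 CPM, a ratio of −2.01 (−2.04 to −1.97). The ratios of the remaining members were between these of Nanog and Tfcp2l1: Tbx3, a T-box factor (−3.81), Nr0b1 (−3.89), Fgf4 (−3.76), Tet2 (−3.35), Zfp57 (−3.15), Klf5 (−3.13), Nr5a2 (−3.11), Sox15 (−2.604), Stat3 (−2.47), Socs3 (−2.45), Fbxo15 (−2.28) and Tcl1 (−4.58). Prdm14, known for germ cell and naive identity, stayed under 5 CPM, with 3.27 and 0.142 CPM.

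Dppa3 (Stella), known from germ cells and the early embryo, was the 1 naive gene that rose. It measured 14.6 CPM (13.8 to 15.6) in ESC and 29.8 CPM (28.6 to 31.1) at day 3, a ratio of 1.03 (0.92 to 1.13), with UMIs in 8.51% (6.96 to 10.3) and 17.1% (14.6 to 19.8) of cells. This call lay at the limit. Scaling by TMM factors, an alternative named under processing, moved the ratios of named genes by a median of −0.08, which takes Dppa3 under 2-fold. The Dppa3 ratio was 0.75 in cells with high chromosome 11, described further on, where 0 naive members were 2-fold higher. In the Oct1_cKO libraries it measured 3.17 and 26.3 CPM. At day 3, Zfp42 was found in 49.3% of cells with a Dppa3 UMI and in 27.5% of cells without one.

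The loss of naive RNA was seen cell by cell. Summed over the naive list, a thinned ESC held a median of 25 UMIs and a day 3 cell a median of 2. The removed connective tissue barcodes held a median of 2.5, so the typical day 3 cell lay at the level of barcodes in which Pou5f1 was found in 21.2%. At least 2 naive genes were detected in 60.8% (57.4 to 64.1) of day 3 cells and in 60.6% (50.5 to 70.0) of the removed barcodes. The share at day 3 was thus not above that in these barcodes, which come from the ESC library. It is read neither as naive expression nor as its absence, since the removed barcodes had UMIs of listed genes themselves. Stat3 alone had UMIs in 52.9% of those barcodes and Klf4 in 39.4%.

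A minority of day 3 cells held naive UMIs within the lower part of the ESC range. The 5th percentile of the ESC was 12 naive UMIs, and 75 of 842 day 3 cells (8.91%) held 12 or more, while 3 held as many as the 95th percentile of the ESC (40 UMIs). The 90th percentile of the removed barcodes was 15 UMIs, so the count alone does not set these cells apart from them. Some removed barcodes held pluripotency RNA, however. Their UMIs of the general pluripotency list had a median of 2 but a 90th percentile of 34.8, against a 5th percentile of 44 in kept ESC. The upper counts of the removed barcodes are therefore no background level for the day 3 cells. At least 5 naive genes were detected in 98.2% of ESC, 12.1% (9.99 to 14.5) of parental day 3 cells, 6.69% (5.21 to 8.44) of Oct1_cKO day 3 cells and 15.4% of the removed barcodes. Among day 3 cells with a Klf4 UMI, 58.5% also had one of Zfp42, against 29.0% of the others. Klf4 and Zfp42 thus tended to occur in the same cells over all 842 thinned day 3 cells. These shares are not of the 75 cells above.

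**Figure D2:**
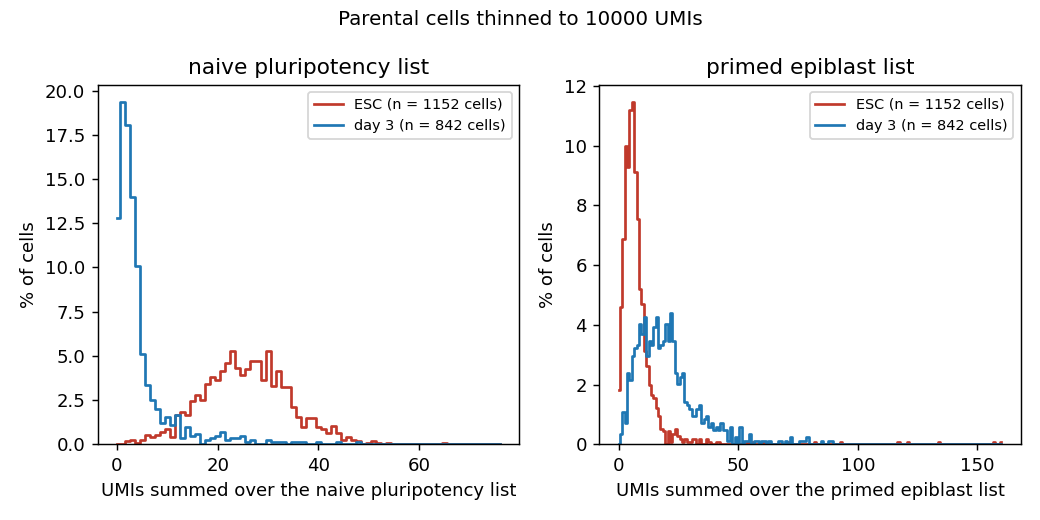
Share of cells (y axis, %) by the number of UMIs summed over the naive list (left) and the primed list (right) in parental ESC (red) and day 3 cells (blue), each thinned to 10000 UMIs. The naive medians are 25 and 2, with a day 3 tail that overlaps the ESC, and the primed medians are 6 and 18.

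Genes shared by naive and primed cells moved less and in both directions. Of the 18 general pluripotency genes, 5 were lower, 3 higher and 10 neither, with a median of −0.62. Pou5f1 went from 728 CPM (722 to 735) to 514 CPM (509 to 519.5), a ratio of −0.502 (−0.52 to −0.48), and Sox2, its partner, from 262 CPM (259 to 266) to 78.1 CPM (76.1 to 80.1), a ratio of −1.75 (−1.79 to −1.71). Sox2 had UMIs in 84.8% of ESC and 45.01% of day 3 cells.

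Dppa5a, an ESC-enriched RNA-binding protein, showed the largest fall in CPM of all genes outside the mitochondrial genome, from 4293 to 414 CPM, a ratio of −3.37 (−3.39 to −3.36). Mybl2, a cell cycle factor (−2.26), Foxd3, a forkhead factor (−1.84), and Gdf3, a TGF-beta ligand (−1.01), also fell. The 3 rising members were Utf1, a chromatin factor of pluripotent cells (144 to 318 CPM), and the let-7 inhibitors Lin28a (46.8 to 101 CPM) and Lin28b (9.86 to 25.3 CPM). Gdf3 and Lin28a did not reach 2-fold in the cells with high chromosomes 1, 6 and 8 that are described further on (−0.74 and 0.69), nor Utf1 in those with high chromosome 11 (0.93).

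Several of the deepest falls lay outside the lists. Jam2, an adhesion molecule of cell junctions, went from 159 CPM (156 to 162) to 1.12 CPM (0.8996 to 1.39), a ratio of −7.14 (−7.46 to −6.84), and from UMIs in 72.8% to 0.9501% of cells. Laptm5, a lysosomal membrane protein, went from 92.6 to 1.25 CPM, Morc1, known for transposon silencing in the germline, from 134 to 4.08 CPM, and Calcoco2, an autophagy receptor, from 204 to 6.44 CPM. Spp1 (osteopontin) went from 1064 to 57.6 CPM, with UMIs in 87.5% of the removed barcodes as well, and its ratio was −4.21 with and −3.25 without the removal of those barcodes. The water channel Aqp3, the keratin Krt42 and the acute phase protein Saa3 had ratios of −5.24, −5.08 and −6.53. For the 20 genes with the lowest ratios, the highest ratio in Oct1_cKO was −4.59.

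LIF receptor signalling through Jak and Stat3 keeps mouse ESC naive. Of 12 compared members of that list, 6 fell and 1, the homeobox gene Gbx2, rose, with a median of −1.07. Lifr, the receptor, went from 16.1 to 2.93 CPM, Stat3, the transcription factor of the pathway, from 40.2 to 7.27 CPM, and Socs3, its feedback inhibitor, from 37.2 to 6.83 CPM. Stat3, Socs3 and the pathway's targets Klf4 and Tfcp2l1 are also counted among the naive genes above, so the results of these lists overlap. Receptor, factor and feedback gene thus all fell.

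Primed epiblast genes rose. All 24 listed genes reached 5 CPM, of which 18 were at least 2-fold higher, 3 lower and 3 neither, with a median log2 ratio of 2.22. Pou3f1 (Oct6; ENSMUSG00000090125, mm10 chromosome 4, 124656807 to 124660655, plus strand), a POU factor of the formative epiblast, measured 7.81 CPM (7.18 to 8.48) in ESC and 189 CPM (186 to 192) at day 3, a ratio of 4.596 (4.47 to 4.72). Its UMIs were found in 6.25% (4.92 to 7.81) of ESC and 63.2% (59.8 to 66.4) of day 3 cells, in 23.96% and 83.1% before thinning, and in 0 of the 104 removed barcodes, where the limit of 3 counts allows a share with a UMI of up to 2.88%. Among the 3 POU factors that reached 5 CPM, only Pou3f1 differed 2-fold.

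Fgf5, an FGF ligand widely used to mark the primed state, went from 0.251 CPM (0.149 to 0.396) to 12.7 CPM (11.9 to 13.5), a ratio of 5.66 (4.99 to 6.42), and had UMIs in 8.55% of day 3 cells. Of those cells, 83.3% also had a Pou3f1 UMI, against 61.3% of cells without Fgf5. Car4, a carbonic anhydrase, rose from 0.362 to 26.1 CPM and Pim2, a serine/threonine kinase, from 5.85 to 124 CPM. Otx2, a homeobox factor of the formative and anterior epiblast, rose from 1.88 to 8.79 CPM.

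Further primed members had ratios between 1 and 3: the SoxB factor Sox3 (2.97), the claudin Cldn6 (2.88), the Wnt receptor Fzd2 (2.56), Tead2 (2.44), Sall2 (2.36), Lef1 (2.22), Enpp3 (2.14), Zic5 (1.6999), Zic2 (1.499), Trh (1.24) and Sox4 (1.198). Lefty2, a Nodal antagonist, fell from 106 to 14.3 CPM, Foxd3 from 18.002 to 5.03 CPM and Krt18, a keratin, from 130.3 to 60.6 CPM. Krt18 had UMIs in 8.94% of ESC and 22.2% of day 3 cells, so its CPM and its share of cells moved in opposite directions and no order is read from the share. In the 3 chromosome ranges described further on, Krt18 was at −2.504, −1.69 and 0.94, so in cells with high chromosome 11 it did not fall. Trh, a peptide hormone precursor, and Sox4 reached 2-fold in only 1 of the same ranges. In cells with high chromosomes 1, 6 and 8, in the middle range and with high chromosome 11, Trh was at 0.13, 0.79 and 2.25 and Sox4 at 0.94, 0.84 and 1.61. Sox4 was at 0.75 without the removal of connective tissue barcodes.

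Beyond the lists, the largest ratio of the ranked genes was that of Pkdcc, a secreted tyrosine kinase, which went from 0.251 CPM (0.149 to 0.396) to 21.6 CPM (20.6 to 22.6), a ratio of 6.43 (5.76 to 7.19). Ptn (pleiotrophin), a heparin-binding growth factor, rose from 1.43 to 42.4 CPM, Cthrc1, a secreted collagen repeat protein, from 0.947 to 27.6 CPM, Epha1, an ephrin receptor, from 2.28 to 50.6 CPM, and Acot1, an acyl-CoA thioesterase, from 3.65 to 58.9 CPM. Prtg (protogenin), a membrane protein of the early neural and mesodermal epithelium, rose from 5.096 to 54.3 CPM, Sema6a, a semaphorin, from 4.71 to 50.6 CPM, and Cntfr, a cytokine receptor, from 2.51 to 29.3 CPM. In Oct1_cKO each of these 8 genes rose as well, Pkdcc from 0.464 to 15.3 CPM and Ptn from 0.283 to 36.9 CPM. At day 6 Ptn measured 487 CPM and Epha1 6.095 CPM.

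The enzymes of DNA methylation split. Dnmt3b, which sets new methylation, rose from 51.1 CPM (49.4 to 52.7) to 374 CPM (369.8 to 378), a ratio of 2.87 (2.82 to 2.92), and its relative Dnmt3a from 13.03 to 85.6 CPM, a ratio of 2.72 (2.62 to 2.82). Tet2, which oxidises methylcytosine, fell from 44.9 to 4.42 CPM, and Zfp57, which guards imprinted methylation, from 211 to 23.7 CPM. Of 10 compared genes in the list, 3 were higher and 4 lower. SoxB and Zic genes, which mark the epiblast and early neural plate, were higher in 6 of 8 cases and lower in 1, Sox2.

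**Figure D3:**
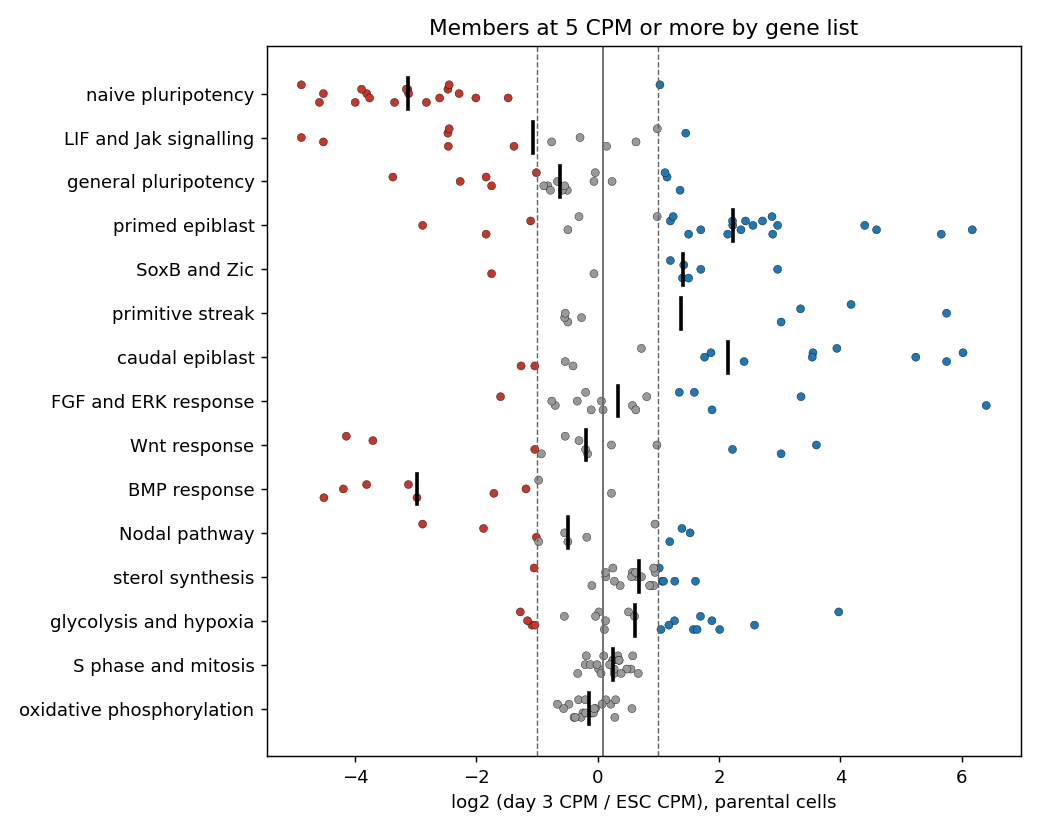
Log2 ratio of day 3 over ESC CPM (x axis) for every member with at least 5 CPM in either library in 15 gene lists, with the list median as a black bar, 2-fold limits as dashed lines and the median of all genes (0.08) as a solid line. Blue points are at least 2-fold higher and red points at least 2-fold lower.

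Genes of the primitive streak were mostly at or under 5 CPM, and those that rose were ligands and T. Of 18 listed genes, 8 reached 5 CPM, 4 of which rose and 0 fell. Fgf8 (ENSMUSG00000025219, mm10 chromosome 19, 45736798 to 45742915, minus strand), an FGF ligand of the streak, measured 0.933 CPM (0.723 to 1.18) in ESC and 50.2 CPM (48.6 to 51.8) at day 3, a ratio of 5.75 (5.402 to 6.12). Wnt8a, a Wnt ligand, went from 1.46 to 26.4 CPM and Wnt3, another, from 1.07 to 10.9 CPM.

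T (ENSMUSG00000062327, mm10 chromosome 17, 8434423 to 8442496, plus strand), the Brachyury factor, went from 5.21 CPM (4.69 to 5.76) to 42.3 CPM (40.9 to 43.8), a ratio of 3.02 (2.87 to 3.18). Regulators of later mesoderm and endoderm stayed under 5 CPM in both libraries: Mixl1 measured 0.348 and 2.14 CPM, Foxa2 0.111 and 0.9295 CPM, Tbx6 0.0557 and 0.181 CPM, Mesp1 0.153 and 0.271 CPM and Gsc 1.66 and 0.4002 CPM. Eomes, which acts with T in the early streak, was measured at 11.5 and 9.54 CPM and Nodal at 58.3 and 41.5 CPM. Cer1, a Nodal antagonist, had 0 UMIs in both libraries, which allows up to 0.0418 CPM in ESC and 0.0387 CPM at day 3.

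The streak genes appeared in a subset of cells. T had UMIs in 4.08% (3.01 to 5.39) of ESC and 20.4% (17.8 to 23.3) of day 3 cells, Fgf8 in 0.868% and 17.6%, and Wnt8a in 1.48% and 18.9%. Before thinning T was found in 15.7% and 45.2% and Fgf8 in 4.23% and 34.99%. In the removed ESC barcodes T had UMIs in 0.962% and Fgf8 in 0 of 104, where the same limit of 3 counts allows up to 2.88%. Fgf8 was found in 40.7% (33.3 to 48.4) of day 3 cells with a T UMI and in 11.6% (9.31 to 14.3) of those without. Sox2 was found in 30.2% of the T cells and in 48.8% of the others, and Zfp42 in 19.2% and 34.3%.

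Counted over the list, cells with 2 or more detected streak genes made up 62.1% of ESC and 57.4% (53.9 to 60.7) of day 3 cells. The Nodal coreceptor Tdgf1, Nodal and the Wnt target Sp5 were already found in 80.4%, 38.6% and 38.2% of ESC. At least 5 streak genes were detected in 0.434% (0.141 to 1.01) of ESC and 6.41% (4.85 to 8.29) of day 3 cells. The summed level of the list was 401 CPM in ESC and 407 CPM at day 3. The sum therefore hides that Tdgf1, Nodal and Sp5 were lower and T, Fgf8, Wnt3 and Wnt8a higher at day 3.

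Caudal epiblast genes were the other group that appeared. Of 19 listed, 14 reached 5 CPM, 9 of which rose and 2 fell, with a median of 2.14. The summed level was 336 CPM in ESC and 373 CPM at day 3, of which Grsf1 alone held 195 and 81.4 CPM. A thinned ESC held a median of 3 UMIs of the list and a thinned day 3 cell a median of 2. In cells with high chromosomes 1, 6 and 8, described further on, the summed level was 263 CPM in ESC and 445 CPM at day 3. It was lower at day 3 in the middle range (348 and 288 CPM) and with high chromosome 11 (364 and 308 CPM). Nkx1-2 (ENSMUSG00000048528, mm10 chromosome 7, 132594878 to 132599637, minus strand), a homeobox gene of the caudal epiblast, went from 4.96 CPM (4.45 to 5.499) to 57.97 CPM (56.3 to 59.7), a ratio of 3.55 (3.39 to 3.71), and had UMIs in 3.73% of ESC and 35.7% of day 3 cells. Cdx2 (ENSMUSG00000029646, mm10 chromosome 5, 147300805 to 147307270, minus strand), a caudal homeobox factor, went from 5.01 CPM (4.51 to 5.56) to 26.7 CPM (25.5 to 27.9), a ratio of 2.41 (2.25 to 2.58). Cdx4 rose from 1.55 to 5.24 CPM, while Cdx1, a direct Wnt target, fell from 42.1 to 20.6 CPM and Grsf1 from 195 to 81.4 CPM. Cdx1 was at −0.97 and Grsf1 at −0.11 in cells with high chromosomes 1, 6 and 8, described further on, where 0 caudal members were 2-fold lower.

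Of 6 Hox genes that reached 5 CPM, 4 rose and 2 fell. Only 2 could be compared in cells with high chromosome 11, of which 1 was higher and 1 lower. Anterior Hox genes are the first to be switched on in the embryo. Hoxb1 went from 0.292 CPM (0.181 to 0.447) to 11.1 CPM (10.3 to 11.8), a ratio of 5.24 (4.62 to 5.94), and Hoxb2 from 0.153 to 9.94 CPM, a ratio of 6.02 (5.17 to 7.03). Hoxa5 rose from 0.557 to 6.44 CPM, Hoxa7 fell from 7.53 to 3.29 CPM and Hoxb9 from 7.38 to 0.904 CPM, and Hoxb3 measured 0.0418 and 0.336 CPM. Sp8, a zinc finger factor, rose from 0.877 to 10.2 CPM. Wnt3a, a ligand, and Cyp26a1, which breaks down retinoic acid, both expressed in the tail bud, measured 0.237 and 0.207 CPM and 0.111 and 0.3098 CPM.

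These genes also occurred together within cells. At day 3 Hoxb1 was found in 26.7% of cells with a Cdx2 UMI and in 5.09% of those without, and Hoxb2 in 25.2% and 4.38%. T cells held Nkx1-2 in 50.6% and Cdx2 in 23.8% of cases, against 31.9% and 14.0% of other cells. All cells come from 1 library and were thinned to the same number of UMIs, so these shares describe that library. At least 5 caudal genes were detected in 0.868% of ESC and 13.5% (11.3 to 16.04) of day 3 cells.

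Among the signalling pathways, FGF and ERK response genes rose in 5 of 16 cases and fell in 1, with a median of 0.33. Egr1, an immediate early factor that follows ERK activity, went from 0.696 CPM (0.517 to 0.918) to 58.9 CPM (57.2 to 60.7), a ratio of 6.403 (6.002 to 6.84), and from UMIs in 0.868% to 38.005% of cells. It also had the highest ratio of the immediate early list, in which 3 of 13 genes rose and 1 fell, with a median of 0.49. The ERK phosphatases Dusp4 (2.45 to 25.01 CPM), Dusp6 (10.8 to 39.9 CPM) and Dusp5 (2.1998 to 5.59 CPM) and the Ras pathway inhibitor Spred1 (17.01 to 51.3 CPM) rose. Other feedback genes did not reach 2-fold: Spry2 measured 31.6 and 19.5 CPM, Spry4 12.5 and 9.902, Etv5 85.9 and 50.9, and Etv4 41.4 and 61.5. Phlda1 fell from 26.1 to 8.61 CPM, but was at −0.605 in cells with high chromosome 11, where 0 members of the list were 2-fold lower. Dusp5 and Dusp6 did not reach 2-fold in cells with high chromosomes 1, 6 and 8 (0.44 and 0.85).

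The FGF ligands changed over. Fgf4, the main FGF of ESC, fell from 77.2 to 5.71 CPM, a ratio of −3.76 (−3.9002 to −3.62), while Fgf5 and Fgf8 rose as described and Fgf17 measured 9.59 and 7.24 CPM. At day 3 Fgf8 was the most abundant of the 4 in CPM, a comparison of 5′ tags that is not scaled to length. Fgfbp3, an FGF binding protein, rose from 0.961 to 8.24 CPM.

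BMP response genes were lower at day 3. Of 9 compared, 7 fell and 0 rose, with a median of −2.98, and Bambi was at 0.23. In cells with high chromosomes 1, 6 and 8, described further on, 6 of 7 were lower, with a median of −1.44. In the middle range 9 of 10 were lower (−3.67), and with high chromosome 11 4 of 7 (−1.65). In the same order, Id3 measured 258, 255 and 125 CPM in ESC and 94.9, 76.0 and 69.5 CPM at day 3. Id1 (ENSMUSG00000042745, mm10 chromosome 2, 152736251 to 152737410, plus strand), the classic direct target of BMP receptors, measured 182 CPM (179 to 186) in ESC and 8.004 CPM (7.39 to 8.66) at day 3, a ratio of −4.51 (−4.63 to −4.39). Id4 fell from 10.99 to 1.27 CPM, Tbx3 from 93.03 to 6.65 CPM, Gata2 from 6.599 to 0.361 CPM and Msx2 from 5.08 to 0.646 CPM, and the ligand Bmp4 itself from 13.96 to 1.601 CPM. Per the protocol, and if days are counted from the first medium, the BMP receptor inhibitor was present at day 3. Whether the inhibitor lowered these genes was not tested. The removed connective tissue barcodes held a median of 23.5 UMIs of this list per thinned cell, against 5 in kept ESC and 1 at day 3, and Id1 was at −4.65 without the removal. The part of residual RNA from such cells in the ESC level was not tested.

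Fst, which binds activin and BMPs, rose from 49.1 to 233 CPM, and Bmp7 from 2.91 to 9.22 CPM. In the Nodal list 3 of 11 genes rose and 3 fell. Lefty1, an antagonist, rose from 49.6 to 129.9 CPM, while Lefty2 and Pcsk6, a protease that activates Nodal (13.1 to 3.55 CPM), fell. In cells with high chromosomes 1, 6 and 8 Lefty1 was at 0.61. Lefty1 and Lefty2 are similar neighbouring genes, and reads shared between them would be uncertain. Of 5 Smad genes compared, which carry both signals, 0 differed 2-fold, and the inhibitory Smad7 measured 78.6 and 40.1 CPM.

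Wnt response genes were divided, with 3 of 13 higher, 3 lower and a median of −0.20. Nkd1, a Wnt feedback inhibitor, rose from 0.849 to 10.3 CPM, Lef1, a nuclear effector, from 14.1 to 65.997 CPM, and T as above. Axin2, a feedback gene widely used as a readout of the pathway, measured 33.9 CPM (32.6 to 35.3) in ESC and 17.8 CPM (16.9 to 18.8) at day 3, a ratio of −0.93 (−1.02 to −0.83), and did not reach 2-fold. Sp5 measured 62.9 and 43.4 CPM. The secreted antagonists changed over: Dkk1 (5.01 to 0.284 CPM), Notum (14.3 to 1.097 CPM) and Sfrp1 (112 to 29.3 CPM) fell, and Sfrp2 rose from 1.46 to 22.9 CPM.

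Cell surface and matrix genes moved as well. Of 15 epithelial adhesion genes, 8 rose and 1 fell. In cells with high chromosomes 1, 6 and 8, 4 of 11 were higher and 2 lower, with a median of 0.07. Esrp1, a splicing factor of epithelia, rose from 1.77 to 15.2 CPM, Cldn6 from 5.26 to 38.9 CPM and Cldn7 from 11.1 to 52.4 CPM, while Jup (plakoglobin) fell from 79.3 to 11.2 CPM. The matrix genes Fn1 (254 to 41.3 CPM), Sparc (422 to 81.6 CPM), Nid1 (28.9 to 2.23 CPM) and Hspg2 (41.3 to 11.8 CPM) fell, and 5 of 8 collagen and laminin genes did. Fn1 and Sparc had UMIs in 98.1% and 99.04% of the removed barcodes, and in 86.2% and 92.1% of the kept ESC.

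In metabolism, glycolysis and hypoxia genes rose in 10 of 21 cases and fell in 4, with a median of 0.61. Slc16a3 (Mct4; ENSMUSG00000025161, mm10 chromosome 11, 120948480 to 120960868, plus strand), the lactate exporter, went from 7.23 CPM (6.62 to 7.88) to 113 CPM (111 to 116), a ratio of 3.97 (3.84 to 4.103), and Slc2a1 (Glut1), the main glucose importer, from 78.1 CPM (76.1 to 80.2) to 315 CPM (311 to 319), a ratio of 2.01 (1.97 to 2.05). The promoters of both with ACGTG are printed above. Bnip3, a mitophagy receptor, rose from 5.76 to 34.6 CPM and Egln3, an oxygen sensor, from 4.19 to 15.5 CPM. Of 20 oxidative phosphorylation genes 0 differed 2-fold, with ratios between −0.66 for Cox6c and 0.56 for Sdhb.

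Sterol synthesis genes rose in 5 of 22 cases and fell in 1, with a median of 0.68. Fdps, an enzyme of the mevalonate pathway, went from 113 CPM (111 to 116) to 347 CPM (342 to 351), a ratio of 1.61 (1.58 to 1.65). Stard4 (7.77 to 18.7 CPM), Dhcr7 (13.9 to 29.5 CPM), Msmo1 (79.2 to 165 CPM) and Mvd (22.2 to 44.8 CPM) rose, and Ebp fell from 119 to 57.9 CPM. Msmo1 and Mvd were at 1.06 and 1.01. Scaling by TMM factors, which moved the ratios of named genes by a median of −0.08, takes both under 2-fold. Within the chromosome ranges, 11 genes rose and 0 fell in the middle range, 10 and 0 in cells with high chromosome 11, and 1 and 1 in cells with high chromosomes 1, 6 and 8.

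Cell cycle and ribosomal protein genes stayed within 2-fold, while some genes of stress defence and amino acid metabolism did not. Of 21 genes of S phase and mitosis 0 differed 2-fold, with a median of 0.25, and of 16 cytosolic ribosomal protein genes 0, with a median of 0.13. Oxidative stress defence fell in 6 of 16 cases and rose in 0, with Gpx2 (30.03 to 4.44 CPM), Nqo1 (49.8 to 9.05 CPM), Gstm1 (52.6 to 12.1 CPM) and Sod2 (421 to 129 CPM) having the lowest ratios. Tdh, threonine dehydrogenase, on which mouse ESC depend, fell from 610.5 to 238 CPM, and Phgdh, the first enzyme of serine synthesis, rose from 124 to 304 CPM. In cells with high chromosomes 1, 6 and 8 both stayed within 2-fold (−0.92 and 0.77).

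The removal of connective tissue barcodes decided some calls and moved others. Without it, Tagln, a smooth muscle actin-binding protein, was at 0.22 instead of 3.52, Ccnd2, a D-type cyclin, at 0.66 instead of 2.43, and Timp2, a protease inhibitor, at −3.52 instead of 1.41. Kif1a, a neuronal kinesin, was at 1.59 instead of 3.79, and Zeb2, a repressor of epithelial genes, at 2.06 instead of 4.01. In the removed ESC barcodes Ccnd2 had UMIs in 94.2% and Timp2 in 95.2%.

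The parental cells were not uniform in how much RNA came from whole chromosomes, and the mix differed between the libraries. A score per cell set its share of UMIs from chromosomes 1, 6 and 8 against that from chromosome 11, relative to the median Oct1_cKO cell of the stage, as a log2 value. Of parental ESC, 28.2% (25.7 to 30.7) scored above 0.25, with chromosomes 1, 6 and 8 high, 25.5% lay within 0.25 of 0 and 46.4% (43.6 to 49.1) scored below −0.25, with chromosome 11 high. At day 3 the shares were 52.8% (49.6 to 56.0), 13.5% and 33.7% (30.7 to 36.8). In both Oct1_cKO libraries over 90% of cells lay within 0.25 of 0, and 86 ESC and 44 day 3 parental cells lay within 0.05 of a limit. The ranges are cut from 1 score and are no cell types.

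Medians over the chromosomes that define the score restate it. The median log2 ratio of genes on chromosomes 1, 6 and 8 was 0.23, 0.22 and 0.25 in parental, against 0.08 for all genes, and −0.02, −0.06 and 0.05 in Oct1_cKO. That of chromosome 11 was −0.02, and chromosomes 7 (−0.04) and 16 (−0.06), which the score does not use, were lower still. The directions of the naive and primed lists were the same when ESC and day 3 cells of 1 range were compared with each other. The naive median was −2.98 in cells with high chromosomes 1, 6 and 8, −3.36 in the middle range and −3.81 in cells with high chromosome 11, with 17 of 18, 18 of 19 and 18 of 19 members lower. The primed median was 2.23, 1.91 and 2.32, with 16 of 23, 17 of 24 and 18 of 24 higher.

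Of the 8 lists followed in full, the caudal list differed most between the ranges. Their median was 3.499 in cells with high chromosomes 1, 6 and 8, 0.95 in the middle range and 1.38 in cells with high chromosome 11. Cdx2 had a ratio of 3.36, 0.81 and 1.38, Hoxb1 of 6.68, 3.497 and 3.91, and Hoxa5 of 3.33, 2.18 and 0.28. Cdx4 reached 2-fold in the first range alone (4.12, 0.95 and 0.76). The summed level of the Hox list at day 3 was 117, 39.3 and 16.6 CPM, and in ESC 45.5, 28.1 and 12.7 CPM, in the same order.

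Most day 3 cells with 12 or more naive UMIs lay in 1 range. Of 458 thinned cells with high chromosomes 1, 6 and 8, 64 (14.0%; 10.9 to 17.5) held 12 or more naive UMIs, against 2 of 108 (1.85%; 0.225 to 6.53) in the middle range and 9 of 276 (3.26%; 1.502 to 6.1) in cells with high chromosome 11. The median was 3, 3 and 2 UMIs. Members of the naive list can lie on chromosomes that the score uses, as Zfp42 does on chromosome 8, so the naive count and the score share UMIs. The count and the range are therefore not independent, and neither are the range and the level of any member on these chromosomes. Klf4 at day 3 measured 14.9, 5.8999 and 3.51 CPM and Tfcp2l1 13.4, 1.91 and 2.88 CPM. In ESC the same ranges had Klf4 at 246, 220.1 and 206 CPM and Tfcp2l1 at 336, 223 and 195 CPM.

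**Figure D4:**
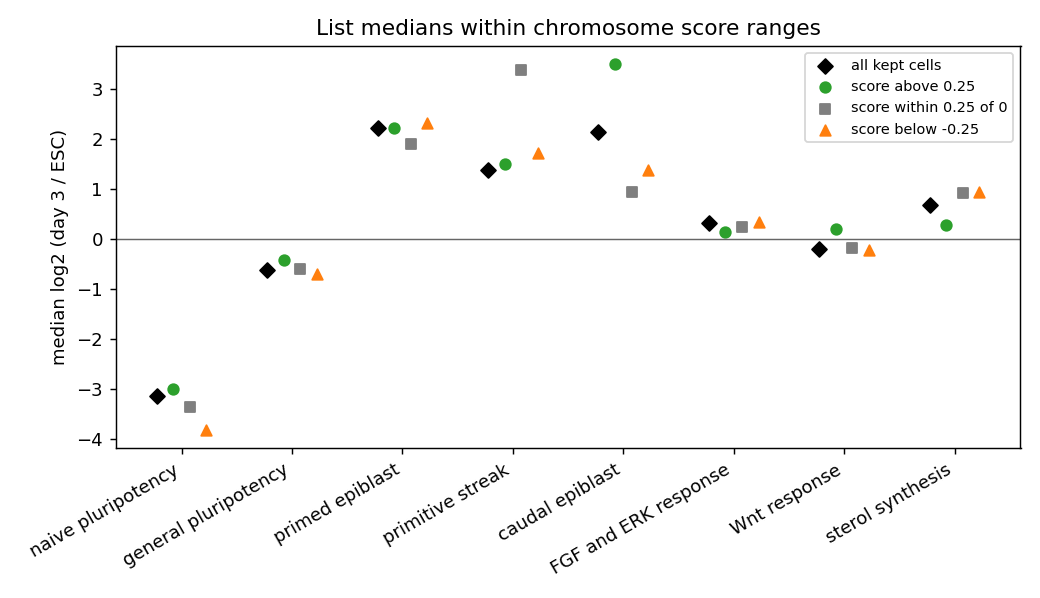
Median log2 ratio of day 3 over ESC (y axis) of the 8 lists followed in full, for all kept cells (black diamonds) and for cells of 1 chromosome score range in both libraries (green, grey and orange). The naive list is lowest and the primed list above 1.9 in each range, while the caudal list ranges from 0.95 to 3.499.

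The Oct1_cKO course from ESC to day 3 gives the same readout in a second pair of libraries, with no control library in common. There 832 of 9438 genes (8.82%) rose and 1248 (13.2%) fell. Of the 883 genes higher in parental, 611 (69.2%, and 73.4% of the Oct1_cKO genes) were higher in both, and of the 844 lower, 757 (89.7%, and 60.7%) were lower in both. The difference in numbers of falling genes was not tested. A single gene, Pmp22, was called in opposite directions.

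Over all kept day 3 cells, Tfcp2l1, Pou3f1, T and Egr1 in Oct1_cKO were within 2-fold of parental. In the same comparison, Fgf8, Cdx2 and Hoxb1 were lower by more than 2-fold. Tfcp2l1 went from 238 to 5.68 CPM in Oct1_cKO and Pou3f1 from 7.57 to 171 CPM. At day 3, Fgf8 measured 50.2 CPM in parental and 18.02 in Oct1_cKO, Cdx2 26.7 and 8.85, and Hoxb1 11.1 and 3.06 CPM, while T measured 42.3 and 34.3 and Egr1 58.9 and 67.5. The Cdx2 ratio was 2.41 in parental and 1.01 in Oct1_cKO. At least 5 caudal genes were detected in 4.16% of Oct1_cKO day 3 cells and in 13.5% of parental ones. In parental day 3 cells with high chromosomes 1, 6 and 8, Cdx2 measured 41.95 CPM and Hoxb1 17.9 CPM. They measured 14.4 and 6.398 CPM in the middle range, and 10.2 and 3.25 CPM with high chromosome 11. In the same order Fgf8 measured 40.8, 44.2 and 66.4 CPM. Of Oct1_cKO day 3 cells 94.4% lay in the middle range. Parental Cdx2 there was less than 2-fold above the Oct1_cKO level, and Hoxb1 and Fgf8 more. With 1 library per group, these differences between the genotypes, and the part of the mix of ranges in them, were not tested.

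**Figure D5:**
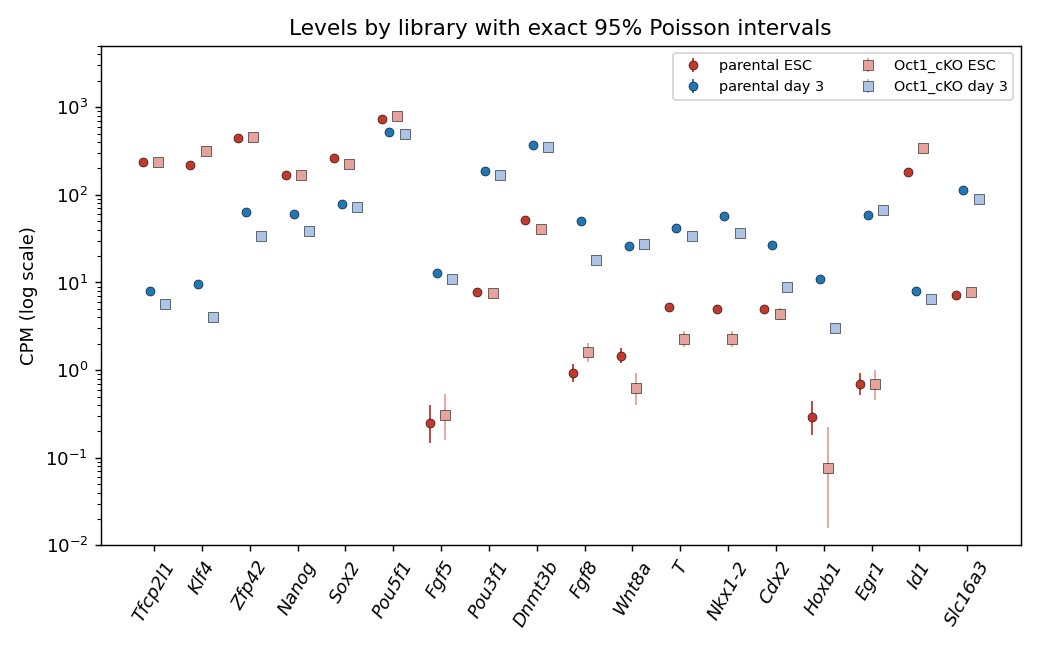
Level (y axis, CPM on a log scale, exact 95% Poisson intervals) of 18 genes in the parental ESC (red circles) and day 3 (blue circles) and the Oct1_cKO ESC and day 3 libraries (pale squares). Naive genes and Id1 are lower and primed, streak and caudal genes higher at day 3 in both genotypes.

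Several genes that rose by day 3 were lower again in the day 6 library. In the parental day 6 library, where the filter on connective tissue genes removed 15.8% of cells and so could also take collagen-expressing cells of the differentiation, Pou3f1 measured 39.1 CPM, Fgf5 1.02, Dnmt3b 34.7, Nkx1-2 1.202, Fgf8 9.52 and T 6.47 CPM, each lower than at day 3. Pou5f1 measured 37.3 CPM, against 514 at day 3. Hoxb1 measured 19.4 and Slc16a3 192 CPM, both above their day 3 levels, and Id1 measured 69.6 CPM.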

How the data were processed

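Single-cell libraries of parental mouse ESC and parental day 3 cells were compared, with the Oct1_cKO libraries of both stages and the parental day 6 library set beside them. The deposited matrices hold UMI counts per gene and cell barcode, made by the authors with the 10x Genomics 5′ kit and Cell Ranger on mm10, per the submitters' processing notes, with software version 3.1.0 per the file headers. The 31053 genes were the same in the 6 matrices, and symbols held by more than 1 gene (35) were kept apart by identifier. No sample column was left unused.

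From the counts, UMIs of the kept cells were summed per library and divided by the library total (CPM, UMIs per 1e6), with exact 95% Poisson intervals. Log2 ratios of day 3 over ESC carry exact conditional binomial 95% intervals, and shares of cells carry Clopper-Pearson intervals. Genes were compared at 5 CPM or more in the higher library and called at 2-fold. A library at 0 UMIs was set to 3 counts. With 1 library per group no test of stage within parental cells was possible, and no fit of stage across both genotypes was made. A share of 0 cells is given the limit of 3 cells with a UMI out of the total. The script for ratios was tested on simulated data.

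Named genes were up to 20 of the highest and 20 of the lowest ratios (ranked with 1 CPM added, at least 20 CPM and UMIs in at least 5% of cells of the higher library), the 10 largest rises and falls in CPM, every member of 8 lists, up to 4 members of each other of the 54 lists, Pou2f1 and the 6 filter genes. Other list members are given as values and were chosen after their values were seen. The genes, the lists and the ranges of the chromosome score were chosen with earlier results of these data known, and give no independent support to them.

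Cells were thinned to 10000 UMIs with a fixed seed for shares of cells. The barcodes marked by Scrublet were kept in the main values and left out as an alternative. Promoters and their motifs came from RefSeq (GRCm38.p6), matched by symbol. Other alternatives were TMM and median-of-ratios scaling, equal weight per cell, other CPM limits, other removals by the 6 genes, a stricter barcode filter, thinning and single ranges of the chromosome score. Python 3.11.15, numpy 2.4.6, pandas 2.3.3, scipy 1.17.1, scanpy 1.11.5, matplotlib 3.10.9, R 4.3.3 and edgeR 4.0.16 (for TMM factors only) were used. A few members of the lists are counted but not reported by name here.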

Additional observations from a re-analysis of the deposited data

Results flagged for a closer look

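Pmp22, a myelin and junction membrane protein, was called in opposite directions in the genotypes. In parental cells it went from 2.55 CPM in ESC to 5.4998 CPM at day 3, a log2 ratio of 1.11. That day 3 level was just above the limit of 5 CPM. Pmp22 lies on chromosome 11, and in cells with high chromosome 11 it measured 2.54 CPM in ESC and 10.6 CPM at day 3. In cells with high chromosomes 1, 6 and 8 it measured 2.51 and 2.87 CPM, and in the middle range 2.61 and 2.49 CPM. In Oct1_cKO cells it went from 12.7 to 2.11 CPM, a ratio of −2.591. At day 6 it measured 148 CPM in parental and 180.1 CPM in Oct1_cKO cells. The difference was not tested, since each group was 1 library.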

How the results depend on the processing

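No paired analysis was possible because each group held 1 library and all replicate numbers are 1, and for the same reason no library could be left out. At a limit of 20 CPM, 344 genes were higher and 435 lower, with 6 caudal and 3 Wnt response members called, and at 1 CPM 1632 and 1427. Sterol synthesis had 11 called members in cells with a chromosome score within 0.25 of 0, 2 above that range and 10 below it, and general pluripotency had 5 above it. The ranges above and below were chosen after seeing the data. Timp2 was at −3.518 with no cell removed by the 6 genes, and Krt18 at 0.9358 and Rhox6 at 0.02351 in the range below. The share of day 3 cells with at least 2 naive genes was 23.8% with cells thinned to 3000 UMIs and 35.2% when 3 genes were asked for. The same share for streak genes was 20.9% and 28.3%, and 53.5% under a barcode filter of 2000 genes and a mitochondrial limit of 5%. Among called genes 51.1% were higher, 44.7% under TMM scaling, 41.4% with no cell removed and 58.5% in the score range below. Of 189 named genes that were called, 185 stayed past 2-fold in the same direction under TMM, 178 with no cell removed, 189 without the barcodes marked by Scrublet (7 of 1396 and 5 of 948, too few for this to say much about doublets), and 166, 178 and 175 within the score ranges from above to below. With 1 library per stage, the spread between libraries is unknown.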

Other observations

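Lists not described above also moved. Keratins fell in 4 of 6 cases, with Krt17 at 6.21 and 0.813 CPM and Krt7 at 5.03 and 0.994 CPM. In cells with high chromosome 11, 2 of 5 keratins were lower and 1 higher, with a median of 0.88 and Krt7 at a log2 ratio of −0.57. Trophoblast genes fell in 3 of 5 cases, with Ascl2, a trophoblast and intestinal stem cell factor, at 20.9 and 3.58 CPM. Polycomb genes fell in 3 of 14 cases, Jarid2 from 153 to 60.3 CPM, Epop from 277 to 113 CPM and Eed from 153 to 76.2 CPM. Imprinted genes rose in 4 and fell in 4 of 17 cases, with Plagl1, a zinc finger factor, at 50.4 and 4.94 CPM and the noncoding H19 at 20.5 and 1.498 CPM. The log2 ratio of H19 was −0.69 in cells with high chromosome 11 and −5.98 in the middle range. Germline genes fell in 4 of 10 cases, Tex19.1, a guard against transposons, from 50.1 to 12.8 CPM. The small heat shock protein Hspb1 fell from 1009.6 to 159 CPM, the only heat shock gene of 10 to differ 2-fold.

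Among risers, Nes (nestin), an intermediate filament of neural progenitors, went from 5.57 to 43.9 CPM and Crabp2, which carries retinoic acid, from 2.76 to 26.1 CPM, in a neural list with 4 of 9 genes higher and 1 lower. The Notch ligand Dll3 rose from 2.52 to 15.6 CPM while Rbpj, the nuclear effector of Notch, fell from 127 to 41.3 CPM. Chac1 (1.31 to 8.22 CPM), Stc2 (1.88 to 8.11 CPM) and Cebpb (10.7 to 43.8 CPM) were among 5 of 14 integrated stress response genes that rose. Mycl rose from 4.94 to 16.5 CPM, and Myc measured 10.8 and 16.6 CPM. The fatty acid desaturases Fads1 (10.7 to 24.6 CPM) and Fads2 (1.601 to 5.46 CPM) were among 4 of 12 fatty acid synthesis genes that rose. Hmga1, a chromatin protein, rose from 51.3 to 139 CPM and its relative Hmga2 fell from 44.7 to 16.95 CPM. Of 8 YAP target genes 0 differed 2-fold, of 14 p53 targets 1 rose (Pmaip1, 31.1 to 75.2 CPM) and 1 fell (Tigar, 58.8 to 24.4 CPM), and of 12 D-type cyclins and inhibitors 2 rose and 1 fell. Metallothionein genes Mt1 (1687 to 819.8 CPM) and Mt2 (792 to 357 CPM) fell and Mt3 (2.66 to 14.4 CPM) rose.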
